A study of Mus musculus with 24 samples.

Results

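The 8 genes that are used to mark interneurons of the striatum were followed through the nucleus accumbens (NAc) of stressed and unstressed mice. They were *Sst*, *Npy*, *Nos1*, *Lhx6*, *Pvalb*, *Calb2*, *Cck* and *Vip*, taken by symbol from the mRNA read counts, so that 8 of the 38293 genes in the table were members. All 8 passed the filter on low counts that left 18593 genes for testing, with between 74 reads (*Vip*) and 7282 reads (*Sst*) per library.

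The samples were C57BL/6J mice of both sexes, aged 9 weeks by the sample labels and 8 weeks by the study's methods. Unstressed males (NSM), stressed males (SM), unstressed females (NSF) and stressed females (SF) were each represented by 3 libraries, and each library was made from 10 ventral striatum punches pooled from 5 mice. Stressed mice went through subchronic variable stress (SCVS), in which foot shock, tail suspension and restraint alternate over 6 days at 1 hour a day, and tissue was taken 24 hours after the last of them. All females were in estrus or proestrus. A pool gives one value for 5 mice, and in tissue RNA of this kind fewer cells of a type and less RNA per cell cannot be told apart.

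Most neurons of the NAc are medium spiny projection neurons, which release GABA. The interneurons are sparse, make their contacts within the striatum and fall into classes with separate marker genes. One class makes somatostatin, neuropeptide Y and nitric oxide together, a fast-spiking class makes parvalbumin, and another makes calretinin. *Lhx6*, a transcription factor of the medial ganglionic eminence, marks the precursors of the somatostatin and parvalbumin classes and stays on in many adult cells. Vasoactive intestinal peptide and cholecystokinin mark interneurons chiefly in the cortex, and *Cck* is also strongly expressed by cortical glutamatergic neurons, so that these 2 genes are the members least particular to the striatum.

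*Sst*, *Vip* and *Cck* carry a cyclic AMP response element, or its short core, close to their start. They are shown here because the *Sst* element is a classic example of one, and because *Vip* and *Cck* varied together across the libraries. Whether the short core has any part in that was not tested. Each line gives the 120 bases before the RefSeq start site on the gene's strand, found by exact match in the build of the counts (NCBIM37), with the element in capitals. *Sst* lies at chr16:23890931-23891050, *Vip* at chr10:4707324-4707443 and *Cck* at chr9:121404813-121404932, all on the minus strand.
Sst: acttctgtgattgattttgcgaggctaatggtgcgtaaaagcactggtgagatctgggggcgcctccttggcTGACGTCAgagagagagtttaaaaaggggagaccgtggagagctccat
Vip: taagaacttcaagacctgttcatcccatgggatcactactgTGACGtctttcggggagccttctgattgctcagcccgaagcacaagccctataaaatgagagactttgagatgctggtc
Cck: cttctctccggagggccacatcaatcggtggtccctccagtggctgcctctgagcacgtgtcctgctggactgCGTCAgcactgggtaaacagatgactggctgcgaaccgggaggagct

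The full element, TGACGTCA, reads the same on both strands and was present in 588 of 32851 RefSeq promoter windows of 300 bases (1.79%), among the members in *Sst* only. The short core, CGTCA or TGACG on either strand, overlaps the full one and was present in 6837 windows (20.8%), among them those of *Sst*, *Vip*, *Cck* and *Nos1*. No match was found in the windows of *Npy*, *Pvalb* and *Lhx6*, and *Calb2* had no entry in the promoter table. A match is a string of letters and says nothing of binding.

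Between genes, levels were compared as RPKM (reads per kilobase of annotated exon, scaled to library size), here as the mean over the 12 libraries. *Sst* was the most abundant member at 200.5 RPKM ± 32.0 (SD, n = 12) and *Npy* followed at 65.1 ± 5.10. *Cck* came next at 11.5 ± 10.3, then *Nos1* at 8.87 ± 0.529, *Calb2* at 6.69 ± 1.90, *Lhx6* at 5.34 ± 0.545, *Pvalb* at 3.43 ± 1.24 and *Vip* at 1.76 ± 1.05. *Sst* and *Npy* stood above all other members in every library, without overlap.

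**Figure D1:**
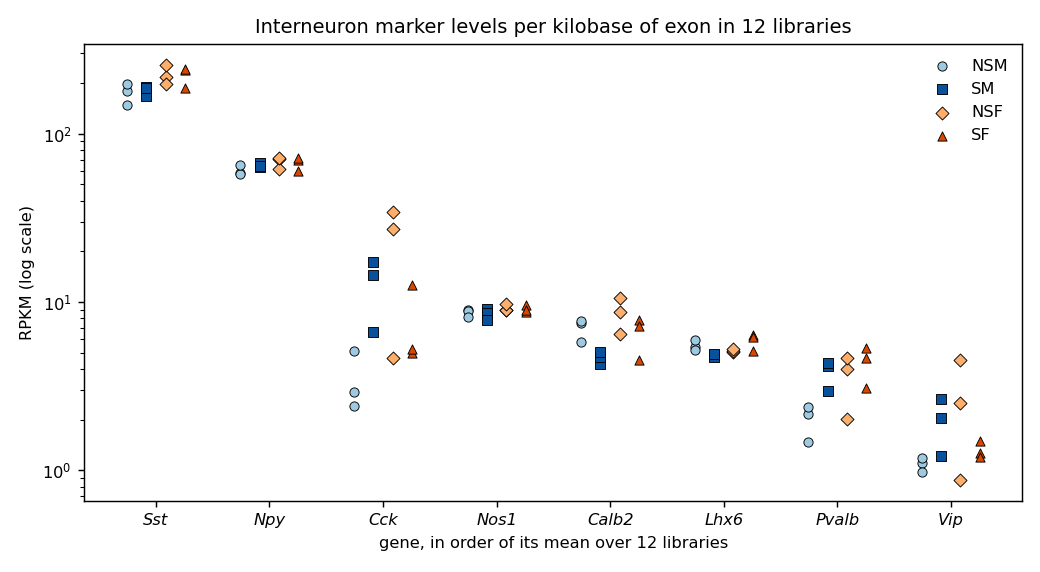
RPKM of the 8 genes in each of the 12 libraries, on a log axis, with genes ordered by their mean and one marker per library for NSM, SM, NSF and SF. *Sst* and *Npy* lie above the rest in every library, and *Cck* spans the widest range, 14.2-fold from its lowest to its highest library.

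Below these the order depended on the group. In unstressed males the ranges of *Calb2* and *Lhx6* overlapped and other neighbors were apart. In stressed males *Cck* overlapped *Nos1*, and *Calb2* overlapped both *Lhx6* and *Pvalb*. In unstressed females *Nos1* overlapped *Cck* and *Calb2*, and *Pvalb* overlapped *Vip*, while in stressed females the members from *Nos1* down to *Pvalb* formed a chain of overlapping neighbors.

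The members differed more in their spread than in any shared direction. The highest library exceeded the lowest by 14.2-fold for *Cck*, 5.18-fold for *Vip*, 3.60-fold for *Pvalb* and 2.46-fold for *Calb2*. The other 4 genes were far steadier, at 1.73-fold for *Sst*, 1.36-fold for *Lhx6*, 1.24-fold for *Npy* and 1.23-fold for *Nos1*. These 4 had 913 to 7282 reads per library, and the 4 with the wider spread had 74 to 1377.

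From here on levels are CPM (counts scaled to library size with TMM factors) and differences are log2 fold changes with their SE from limma. A gene was called, or taken as regulated, where the unadjusted p was under 0.05 with at least a 1.3-fold difference. The adjustment of p covers all 18593 genes. All groups share a single estimate of the spread in this fit. Leaving out a library outside the groups compared therefore changes mainly p and hardly the difference itself.

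By limma no member had an adjusted p under 0.05 in any comparison. The smallest were 0.128 for SM against NSM (where 3.32% of all genes passed), 0.948 for SF against NSF (0.0%), 0.273 for the difference between these effects (0.0269%), 0.188 for NSF against NSM (0.285%) and 0.107 for SF against SM (0.145%). At an unadjusted p under 0.05 there were 4, 1, 2, 3 and 2 members in these comparisons, where 21.5%, 4.23%, 9.55%, 15.4% and 16.4% of all genes passed. edgeR's quasi-likelihood test gave no adjusted p under 0.05 either, and DESeq2 gave 1 in 3 of them (*Pvalb* in SM against NSM, adjusted p = 0.0139, *Cck* in NSF against NSM, adjusted p = 0.0146, and *Lhx6* in SF against SM, adjusted p = 0.0365).

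In males, 3 of the 8 members were regulated by SCVS, where 6.44% of all tested genes were. *Pvalb* and *Cck* rose, where 2.36% of all genes did, and *Calb2* fell, where 4.08% did. The median log2 fold change of the members was 0.08, and that of all genes -0.01. In stressed females compared to unstressed females no member was regulated, where 1.73% of all tested genes were, and the medians were -0.02 and 0.00. At an unadjusted p under 0.05 without the fold threshold 1 member passed in females, *Lhx6*, where 4.23% of all genes did. edgeR's quasi-likelihood test called 2 members there, *Cck* and *Vip*, and DESeq2 1, *Cck*.

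**Figure D2:**
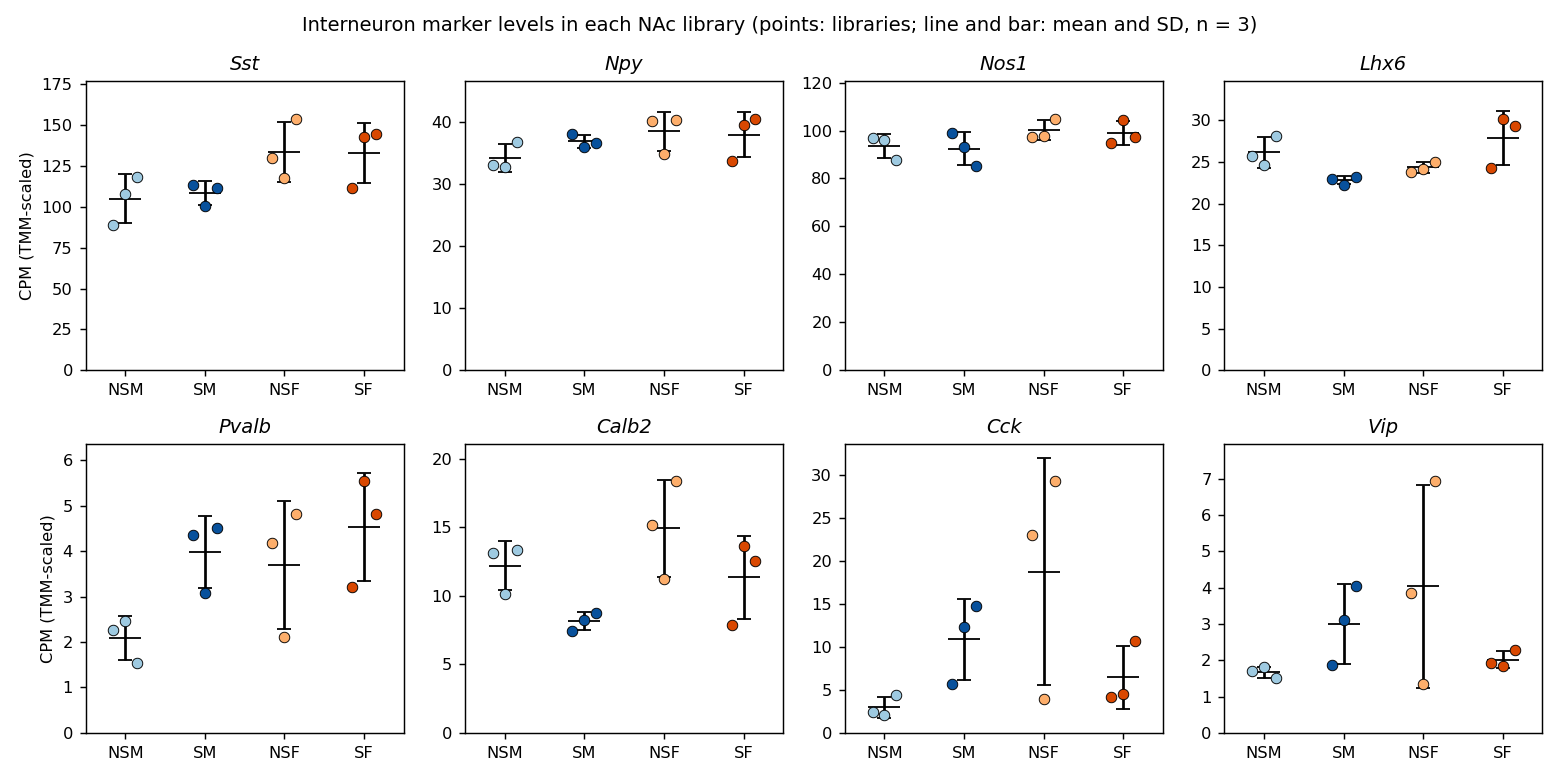
CPM of each gene by group, with one point per library and the mean ± SD (n = 3), every axis starting at 0. The 3 SM libraries lie above the NSM libraries for *Pvalb* and *Cck* and below them for *Calb2* and *Lhx6*, and NSF libraries 1 and 3 lie far above NSF library 2 for *Cck* and *Vip*.

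*Sst* (chromosome 16, 23889667 to 23890930) encodes somatostatin, an inhibitory peptide. Its levels were 89.2, 107.8 and 118.3 CPM in the NSM libraries, 113.6, 100.4 and 111.3 in SM, 129.8, 117.9 and 153.9 in NSF, and 111.7, 142.5 and 144.7 in SF. The stressed libraries lay within the range of the controls or close to it in both sexes, and most female libraries lay above the male ones. The log2 fold change with stress was 0.05 ± 0.12 (SE) in males, with a 95% interval of -0.20 to 0.31, and -0.01 ± 0.12 in females, with an interval of -0.27 to 0.25.

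Between unstressed females and unstressed males *Sst* differed by 0.35 ± 0.12 (limma, adjusted p = 0.188), a 1.27-fold difference that fell short of the fold threshold. Between stressed females and stressed males it differed by 0.29 ± 0.12 (limma, adjusted p = 0.254). The groups overlapped in both cases.

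*Npy* (chromosome 6, 49772709 to 49779506) encodes neuropeptide Y, which is stored in the same interneurons. It was at 33.0, 32.8 and 36.8 CPM in NSM, 38.1, 35.96 and 36.6 in SM, 40.2, 34.8 and 40.4 in NSF, and 33.8, 39.5 and 40.5 in SF. These 12 libraries were among the closest for any member, and no comparison between groups separated them. The log2 fold changes with stress were 0.11 (95% interval -0.06 to 0.28) in males and -0.02 (-0.18 to 0.15) in females. Libraries with more *Sst* had more *Npy*, with a Pearson r of 0.835 over the 12 libraries (adjusted permutation p = 0.0119 over 28 pairs of members), a Spearman rho of 0.860 (adjusted permutation p = 0.00896), an r of 0.762 without NSF library 3 and NSM library 1, the farthest from the median, and an r of 0.841 on deviations from the group means.

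The CPM of *Sst* relative to *Npy* averaged 3.07 ± 0.319 in NSM, 2.94 ± 0.131 in SM, 3.47 ± 0.303 in NSF and 3.495 ± 0.162 in SF (SD, n = 3).

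*Nos1* (chromosome 5, 118231041 to 118408849) encodes neuronal nitric oxide synthase. It was at 96.8, 96.1 and 87.8 CPM in NSM, 99.1, 93.1 and 85.2 in SM, 97.5, 97.9 and 104.9 in NSF, and 94.95, 104.5 and 97.4 in SF. It was the steadiest member, and every NSF library lay just above every NSM library, where 11.0% of all genes did. That difference was 0.10 ± 0.06 on the log2 scale (limma, adjusted p = 0.482). With stress *Nos1* differed by -0.02 in males (95% interval -0.15 to 0.12) and by -0.02 in females (-0.15 to 0.12).

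*Lhx6* (chromosome 2, 35937470 to 35960928) was at 25.7, 24.6 and 28.1 CPM in NSM and at 23.0, 22.2 and 23.1 in SM, so that every SM library was below every NSM library. It was at 23.8, 24.2 and 25.1 CPM in NSF and at 24.2, 30.2 and 29.4 in SF, where SF libraries 2 and 3 were the highest of all 12. The log2 fold change was -0.20 ± 0.08 in males (limma, adjusted p = 0.171) and 0.19 ± 0.08 in females (limma, adjusted p = 0.948), neither past the fold threshold.

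The effects in the sexes had opposite signs, and their difference, female minus male, was 0.39 ± 0.11 (limma, adjusted p = 0.273). This passed the fold threshold for *Lhx6* by a small margin, as a 1.31-fold difference. Leaving out NSM library 3, SM library 2, NSF library 1, SF library 2 or SF library 3 brought it under the fold threshold, at 0.33, 0.37, 0.37, 0.33 and 0.35, with the unadjusted p still under 0.05. Between stressed females and stressed males *Lhx6* differed by 0.29 ± 0.08 (limma, adjusted p = 0.107), and all SF libraries lay above all SM libraries, where 12.8% of all genes did. Without SF library 1 that difference was 0.39 (limma, adjusted p = 0.0182).

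*Pvalb* (chromosome 15, 78021544 to 78036830) encodes parvalbumin, the calcium buffer of fast-spiking interneurons, and was a low gene here, with 78 to 283 reads per library. It was at 2.26, 2.46 and 1.54 CPM in NSM and at 4.35, 3.08 and 4.52 in SM, so that every SM library exceeded every NSM library. It was at 4.17, 2.11 and 4.82 CPM in NSF and at 3.22, 5.54 and 4.83 in SF, which overlapped. *Pvalb* rose with stress in males by 0.93 ± 0.32 (limma, adjusted p = 0.128), 1.90-fold, and this was 0.73 (limma, adjusted p = 0.374) and no longer called without NSM library 3. Leaving out NSF library 2, a female pool, left the male *Pvalb* value at 0.93 and changed its p (limma, adjusted p = 0.0490).

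In females the *Pvalb* effect was 0.40 ± 0.28 (limma, adjusted p = 0.948), and the difference between the sexes was -0.53 ± 0.43 (limma, adjusted p = 0.759). The female effect was called without NSF library 3, at 0.64, and without SF library 1, at 0.62 (limma, adjusted p = 0.931). Without NSF library 2 the difference between the sexes was called, at -0.95 (limma, adjusted p = 0.245).

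*Calb2* (chromosome 8, 112661402 to 112692110) encodes calretinin, a calcium-binding protein. It was at 13.1, 10.1 and 13.4 CPM in NSM and at 7.45, 8.23 and 8.77 in SM, with every SM library below every NSM library. In females it was at 15.2, 11.3 and 18.3 CPM in NSF and at 7.86, 13.6 and 12.5 in SF, where the ranges overlapped. *Calb2* fell with stress in males by 0.57 ± 0.22 on the log2 scale, a 1.49-fold decrease (limma, adjusted p = 0.153).

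Without NSM library 1, NSM library 3 or SM library 1 the male *Calb2* difference was -0.51, -0.50 and -0.52 and missed the unadjusted threshold (limma, adjusted p = 0.222, 0.377 and 0.339). In females the difference was -0.38 ± 0.20 (limma, adjusted p = 0.948). It was called without NSF library 2, at -0.59 (limma, adjusted p = 0.273), and without SF library 2, at -0.54 (limma, adjusted p = 0.946). The effects of the sexes differed by 0.19 ± 0.29 (limma, adjusted p = 0.891), with a 95% interval of -0.44 to 0.82.

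*Cck* (chromosome 9, 121398943 to 121404807) encodes cholecystokinin. It was at 2.47, 2.05 and 4.36 CPM in NSM and at 5.66, 12.3 and 14.8 in SM, without overlap. It was at 23.0, 3.93 and 29.2 CPM in NSF and at 4.19, 4.48 and 10.7 in SF. NSF libraries 1 and 3 were the highest of all 12, while NSF library 2 lay below every SF library. *Cck* rose with stress in males by 1.87 ± 0.87 (limma, adjusted p = 0.230), 3.67-fold, with a 95% interval that began at 0.01.

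When each of the 12 libraries was left out in turn, *Cck* was no longer called in males in 7 fits, with adjusted p of 0.248 to 0.444 (limma). These were the fits without NSM library 1, 2 or 3 (log2 fold changes of 1.78, 1.68 and 2.19), without SM library 2 or 3 (1.74 and 1.61) and without SF library 1 or 2 (1.87 and 1.88). Without NSF library 2, a female pool, the male *Cck* value stayed at 1.87 and its p changed (limma, adjusted p = 0.0337). In females *Cck* differed by -1.15 ± 0.70 (limma, adjusted p = 0.948). Without NSF library 2 this was -2.16 (limma, adjusted p = 0.0202). Against NSF library 2 alone, the one NSF pool below every SF pool, it was 0.57, a sign that this choice of pool fixes.

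The female *Cck* effect minus the male one was -3.02 ± 1.11 (limma, adjusted p = 0.410). With *Lhx6* this made 2 of 8 members called, where 4.42% of all tested genes were called (2.25% upward, as *Lhx6*, and 2.17% downward, as *Cck*). With NSF library 2 as the only unstressed female library, picked after the values were seen, the *Cck* value was -1.31. Leaving out NSF library 2 instead gave -4.04 for *Cck* (limma, adjusted p = 0.00767).

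*Vip* (chromosome 10, 4698927 to 4707323) encodes vasoactive intestinal peptide and was the lowest member, with 74 to 326 reads per library. It was at 1.69, 1.81 and 1.499 CPM in NSM and at 1.86, 3.10 and 4.03 in SM, where every SM library was above every NSM library by at least a small margin. It was at 3.85, 1.34 and 6.92 CPM in NSF and at 1.93, 1.84 and 2.29 in SF, so that unstressed females held both the lowest and the highest library. The log2 fold changes of *Vip* were 0.80 ± 0.51 in males, -0.62 ± 0.48 in females and -1.42 ± 0.70 for their difference, none of them called (limma, adjusted p = 0.386, 0.948 and 0.554).

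Leaving out single libraries moved these *Vip* results across the threshold. The male value was called at 0.80 without NSF library 2 (limma, adjusted p = 0.139) and at 0.81 without NSF library 3 (limma, adjusted p = 0.197). Both are female pools, so the male difference hardly changed and its p moved through the spread shared by all groups. Without NSF library 2 the female value was -1.37 (limma, adjusted p = 0.0651) and the difference between the sexes -2.17 (limma, adjusted p = 0.0218). The difference was also called without SM library 1, at -1.70 (limma, adjusted p = 0.494).

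Counting groups that did not overlap, 3 members (*Pvalb*, *Vip* and *Cck*) were higher in every SM than in every NSM library, where 11.3% of all tested genes were, and 2 (*Calb2* and *Lhx6*) were lower in every SM library, where 11.7% were. In females all 8 members overlapped, where 11.3% of all genes did not.

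**Figure D3:**
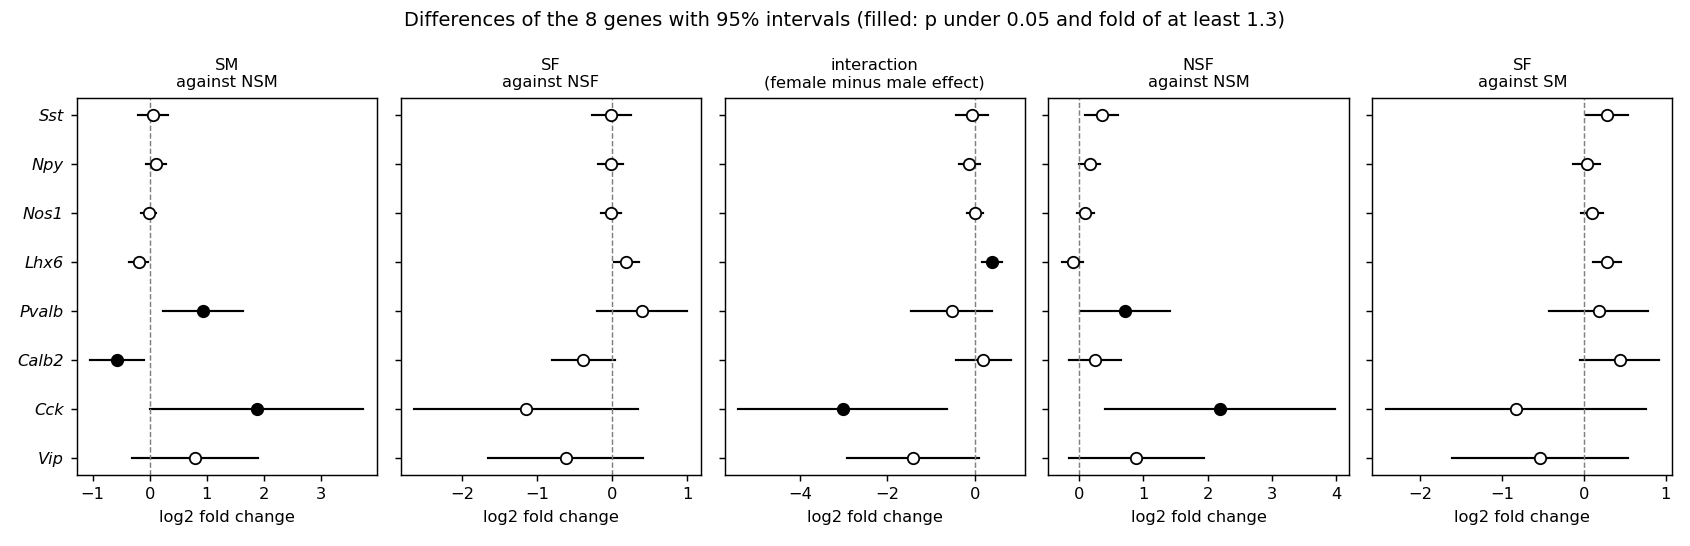
Log2 fold changes of the 8 genes with 95% intervals from limma, one panel per comparison, with filled points for genes past both thresholds and axes that differ between panels. *Sst*, *Npy* and *Nos1* lie close to 0 with short intervals under stress in both sexes, and *Cck* has the longest interval in every panel.

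The sexes were also compared directly. These comparisons use the same libraries as the stress comparisons and are not independent of them. In unstressed females compared to unstressed males 2 members were called, where 5.31% of all tested genes were, and both were higher in females, where 4.17% of all genes were called in that direction. *Cck* was higher in females by 2.19 ± 0.83 (limma, adjusted p = 0.231) and *Pvalb* by 0.71 ± 0.32 (limma, adjusted p = 0.313), both with overlapping libraries. The median over the members was 0.30, against 0.00 over all genes.

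NSF libraries 1 and 3 were the highest NSF libraries for *Cck*, *Pvalb*, *Vip*, *Calb2*, *Sst* and *Npy*, but not for *Nos1* and *Lhx6*. With NSF library 2 as the only library of its group, picked after the values were seen, *Cck* differed by 0.47, *Pvalb* by 0.03 and *Vip* by -0.33, where *Vip* with all 3 differed by 0.89 ± 0.49 (limma, adjusted p = 0.405). Leaving out single libraries ended the call for *Pvalb* in 7 of 12 fits, with log2 fold changes between 0.47 (without NSF library 3) and 0.78 (without NSM library 1), and for *Cck* in 2, at 2.08 without NSM library 1 and 1.98 without NSM library 2. The others were without NSM library 3 (0.51), NSF library 1 (0.57), SM library 1 (0.70), SM library 3 (0.70) or SF library 3 (0.71). Without NSF library 2, *Cck* was higher in females by 3.21 (limma, adjusted p = 0.00232) and *Pvalb* by 1.13 (limma, adjusted p = 0.0335). In the same fit *Vip* was higher by 1.64 (limma, adjusted p = 0.00843), *Calb2* by 0.46 (limma, adjusted p = 0.226) and *Sst* by 0.44 (limma, adjusted p = 0.0943). *Sst* was also higher by 0.44 (limma, adjusted p = 0.101) without NSM library 3.

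In stressed females compared to stressed males no member was called, where 5.55% of all tested genes were. edgeR called 1 there, *Calb2*, and DESeq2 none. *Cck* differed by -0.83 ± 0.74 (limma, adjusted p = 0.619), *Vip* by -0.53 ± 0.50 (limma, adjusted p = 0.643), *Pvalb* by 0.18 ± 0.28 (limma, adjusted p = 0.797) and *Calb2* by 0.44 ± 0.22 (limma, adjusted p = 0.352). Without SF library 1 *Calb2* was called at 0.68 (limma, adjusted p = 0.0757) and *Sst* at 0.41 (limma, adjusted p = 0.0809). *Calb2* was also called without NSF library 2, at 0.44, or NSF library 3, at 0.43, and *Cck* without NSF library 2, at -0.83 (limma, adjusted p = 0.265, 0.307 and 0.283).

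The punches were checked for cells of neighboring tissue. The 9 medium spiny neuron markers, among them *Ppp1r1b*, *Drd2* and *Penk*, summed to between 4368 and 5570 CPM in the 12 libraries. None of them was called in any of the 5 comparisons, where between 1.73% and 6.44% of all tested genes were. The 11 cortical glutamatergic markers, among them *Slc17a7*, the vesicular glutamate transporter of cortical neurons, and *Tbr1*, were detected in all libraries and none was at 0. Their summed level was 52.1 to 72.1 CPM in NSM, 96.4 to 262.3 in SM, 69.4 to 436.1 in NSF and 89.5 to 172.0 in SF. NSF libraries 1 and 3 stood apart at the top, and SM libraries 2 and 3 followed. *Slc17a7* itself ranged from 198 to 13995 reads. In the NSM libraries most of the sum came from *Cux2* and *Rorb*. In NSM library 1 they were at 21.2 and 14.7 CPM of a sum of 55.7.

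Some of these markers moved with the groups, and others did not. In stressed males 4 of the 11 rose (*Slc17a7*, *Cplx3*, *Emx1* and *Nr4a2*), where 2.36% of all genes did, with a list median of 2.35. *Rorb* differed there by 0.22 only, under the fold threshold. *Cux2* did not rise, at 21.2 to 29.8 CPM in NSM and 17.7 to 24.9 in SM. In unstressed females against unstressed males 6 of the 11 were higher, where 4.17% of all genes were, with a median of 2.37. In the difference between the stress effects 8 of the 11 were lower, where 2.17% of all genes were, with a median of -3.08. In stressed females none was called, where 1.73% of all genes were, with a median of -0.69. None had an adjusted p under 0.05 (limma).

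*Cck*, *Vip*, *Npy* and *Pvalb* varied with the mean log2 level of the cortical markers across the 12 libraries. *Cck* followed it most closely, with a Pearson r of 0.984 (permutation p = 1e-05, the smallest that 100000 resamples can give, adjusted p = 8e-05 over 8 members), a Spearman rho of 0.979 (adjusted permutation p = 8e-05) and an r of 0.980 without NSF libraries 1 and 3. *Vip* had an r of 0.873 (permutation p = 8e-05, adjusted p = 0.00032), a rho of 0.902 (adjusted permutation p = 0.00064) and an r of 0.806 without those libraries. On deviations from the group means the values were 0.986 for *Cck* and 0.872 for *Vip*.

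*Npy* had an r of 0.724 (permutation adjusted p = 0.0270), a rho of 0.720 (adjusted permutation p = 0.0281), 0.584 without the same 2 libraries and 0.604 within groups. *Pvalb* had an r of 0.660 (permutation adjusted p = 0.0419), a rho of 0.643 (adjusted permutation p = 0.0560), 0.609 without them and 0.465 within groups. The range of *Npy* was narrow, so that its relation covers a 1.24-fold span only.

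The other members gave no relation past the threshold. *Sst* had an r of 0.512 (adjusted permutation p = 0.145) and a rho of 0.462 (adjusted permutation p = 0.216), with 0.267 without NSF libraries 1 and 3. For *Calb2* r was 0.232 (adjusted permutation p = 0.591) and rho 0.210 (adjusted permutation p = 0.513), with an r of -0.33 without those libraries and 0.715 within groups. *Nos1* had an r of 0.0466 (adjusted permutation p = 0.885), a rho of 0.231 and -0.33 without them. *Lhx6* had an r of -0.206 (adjusted permutation p = 0.591), a rho of -0.343 and -0.158 without them. *Vip* and *Cck* correlated with each other at an r of 0.895 (adjusted permutation p = 0.00224 over 28 pairs) and a rho of 0.874 (adjusted permutation p = 0.00868), with 0.849 without the 2 farthest libraries and 0.861 within groups.

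**Figure D4:**
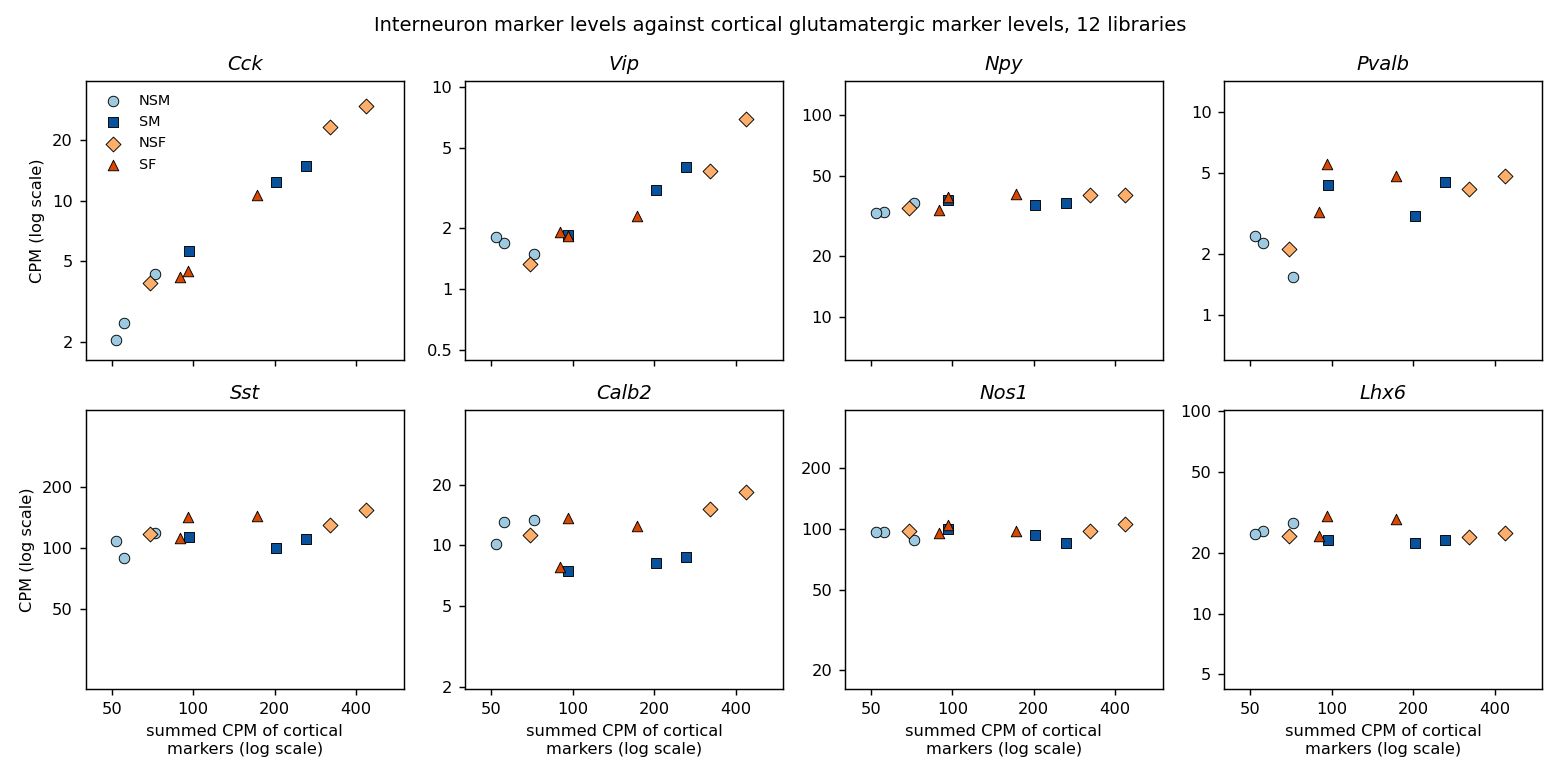
CPM of each gene against the summed CPM of the 11 cortical glutamatergic markers, one point per library, both axes on log scales with the same span in each panel. *Cck* climbs with the cortical markers through all groups, *Vip* does so at the upper end, and the SM libraries sit below the others for *Calb2*, with SF library 1 among them.

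With the cortical marker level as a covariate, the male log2 fold change of *Cck* was -0.35 (limma, adjusted p = 0.327), that of *Vip* -0.54 (limma, adjusted p = 0.424) and that of *Pvalb* 0.41 (limma, adjusted p = 0.598), all 3 uncalled. *Calb2* was still lower in stressed males, at -1.08 (limma, adjusted p = 0.0667), and was the only member called there. The difference between the stress effects of the sexes was 0.02 for *Cck*, 0.48 for *Lhx6* and 0.89 for *Calb2*, of which the last 2 were called (limma, adjusted p = 0.992, 0.904 and 0.904), against 0.19 for *Calb2* without the covariate. In NSF against NSM *Cck* was at -0.10 and *Pvalb* at 0.21, neither called. The cortical levels of the NSM and SM libraries did not overlap, so the male values with the covariate extrapolate between them. The part of cortical tissue in these differences was not tested.

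**Figure D5:**
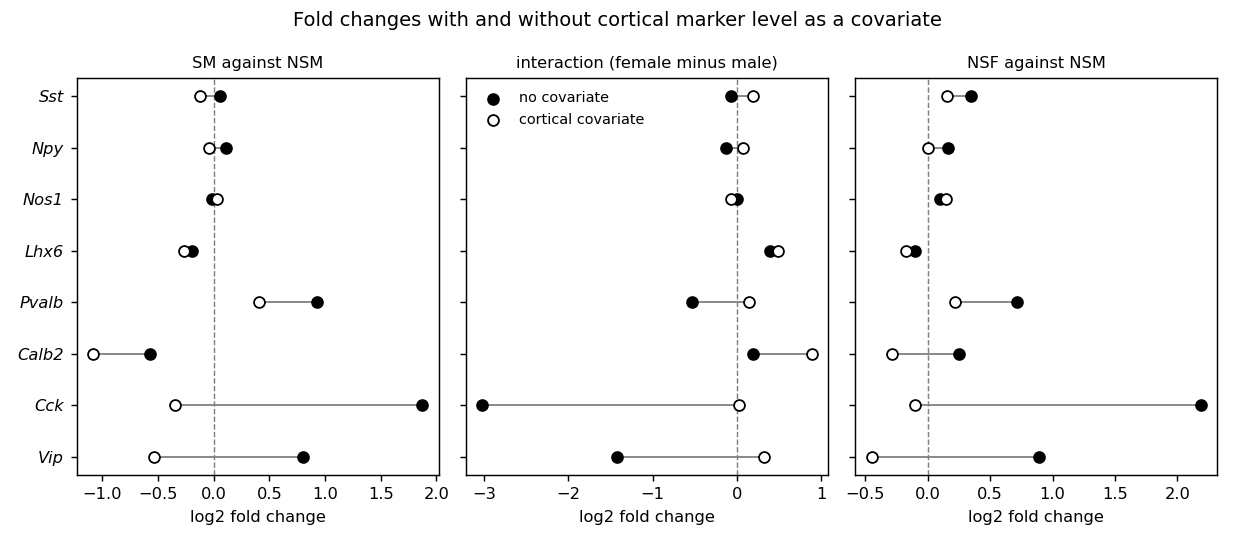
Log2 fold changes of the 8 genes without (filled) and with (open) the cortical marker level as a covariate, for stressed against unstressed males, the female minus male stress effect, and unstressed females against unstressed males. *Cck* and *Vip* move to the other side of 0 or close to it in all 3 panels, *Calb2* moves away from 0 in males, and *Nos1* and *Lhx6* stay within 0.1 of their values.

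Other genes, of GABA release in general or of interneurons, were read from lists that were compiled by function and not by how they moved. Medium spiny neurons also release GABA, so the GABA genes are not particular to interneurons. *Gad1* and *Gad2*, which encode the enzymes of GABA synthesis, and *Slc32a1*, the vesicular GABA transporter, were not called under stress in either sex. In stressed females compared to stressed males *Slc32a1* was called, at 263.0 ± 21.7 against 186.3 ± 13.04 CPM (SD, n = 3), a log2 difference of 0.50 ± 0.10 (limma, adjusted p = 0.0835).

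Of 15 transcription factors of the interneuron lineage 14 were tested, and *Lhx8* was not analysed here. In stressed males 1 was called, *Satb1*, a chromatin organizer needed by maturing somatostatin cells, which rose from 20.1 ± 0.444 to 29.5 ± 2.74 CPM (SD, n = 3), by 0.56 ± 0.11 (limma, adjusted p = 0.0192). *Satb1* is also expressed in cortex, and with the cortical covariate its value was 0.23 and under the fold threshold. None of the 14 was called in stressed females. Of all tested genes 6.44% were called in stressed males and 1.73% in stressed females. In the difference between the sexes' effects *Nkx2-1* (0.42) and *Dlx5* (0.43) were higher and *Satb1* (-0.58) was lower, with adjusted p over 0.2 (limma).

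The same factors were called between the sexes in one direction. In unstressed females against unstressed males 3 of 14 were higher (*Dlx2* by 0.53, *Satb1* by 0.48, *Sp8* by 0.58), where 4.17% of all tested genes were called upward. In stressed females against stressed males 5 of 14 were higher (*Nkx2-1* by 0.43, *Npas1* by 0.75, *Dlx2* by 0.69, *Dlx5* by 0.51, *Sp8* by 0.68), where 4.58% of all tested genes were called upward. The list medians were 0.17 and 0.33. No adjusted p was under 0.05, the smallest being 0.0895 for *Satb1* (limma). *Dlx2* and *Sp8* are also neuroblast genes. Of 7 markers of subventricular neuroblasts 2 were called in the first comparison (*Dlx2*, *Sp8*) and 3 in the second, with *Sox11* at 0.42. Of 5 genes listed as markers of subcortical glutamatergic neurons 3 and 4 were called. Among them were *Zic1* by 0.63 and 0.96, *Trpc4* by 0.59 and 0.77 and *Slc17a6* by 0.96 and 0.87. How particular these genes are to such neurons was not tested. The calls of both lists were upward, where 4.17% and 4.58% of all tested genes were called in that direction. No gene of the neuroblast list was called under stress in either sex, and the part of such cells in the *Dlx2* and *Sp8* differences was not tested.

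Under stress 1 of the 5 subcortical markers was called in males and none in females, where 6.44% and 1.73% of all tested genes were. *Tcf7l2*, a transcription factor of thalamic neurons, fell from 8.0005 ± 0.715 to 5.54 ± 0.114 CPM (SD, n = 3) in stressed males, by 0.53 ± 0.13 on the log2 scale (limma, adjusted p = 0.0484), and its effects in the sexes differed by 0.72 (limma, adjusted p = 0.228). The list median in males was -0.29, and the summed level of the 5 markers was 46.8 to 57.3 CPM in NSM, 40.3 to 45.3 in SM, 57.7 to 85.1 in NSF and 50.1 to 97.3 in SF, with no marker at 0. *Calb2* fell in the same comparison, and the part of such cells in its difference was not tested.

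Among 18 genes of other interneuron classes 17 were tested, and *Slc18a3* was not analysed here. In stressed males 1 was called upward and 3 downward, where 2.36% and 4.08% of all tested genes were. In stressed males *Tac2*, which encodes neurokinin B, fell from 7.25 ± 0.843 to 4.85 ± 0.651 CPM (SD, n = 3), by 0.59 ± 0.13 on the log2 scale (limma, adjusted p = 0.0273). *Chodl*, a marker of the long-range somatostatin and *Nos1* cells, fell by 0.45 (limma, adjusted p = 0.0754), *Crh*, which encodes corticotropin-releasing hormone, fell by 0.76 (limma, adjusted p = 0.225), and *Reln*, which encodes reelin, rose by 0.46 (limma, adjusted p = 0.123). These 3 were named after their values were seen. No gene of the list was called in stressed females, where 1.73% of all tested genes were.

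In the difference between the stress effects of the sexes *Chodl* (0.51), *Tac2* (0.52) and *Crh* (1.10) were called upward, where 2.25% of all tested genes were. Their adjusted p lay between 0.396 and 0.498 (limma). Cholinergic markers, *Chat* among them, were not called in any comparison. *Chat* (0.25) and *Slc5a7* (0.19) were higher in every SF than in every NSF library, under the fold threshold (limma, adjusted p = 0.948 for both). Between these groups 11.3% of all tested genes did not overlap. In unstressed females against unstressed males *Chat* was at -0.22 and *Slc5a7* at -0.26 (limma, adjusted p = 0.228 and 0.162). *Cort*, which encodes the somatostatin relative cortistatin, was higher in unstressed females than in unstressed males by 1.28 ± 0.49 (limma, adjusted p = 0.233), from 34 to 86 reads in NSF and 22 to 32 in NSM. *Elfn1* was higher in stressed females than in stressed males by 0.75 ± 0.20 (limma, adjusted p = 0.106).

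Of the 13 receptors of the member peptides 3 were called in stressed males, where 6.44% of all tested genes were. *Npy1r*, the Y1 receptor, fell from 17.9 ± 1.10 to 13.5 ± 2.01 CPM (SD, n = 3) in stressed males, by 0.42 ± 0.09 (limma, adjusted p = 0.0230), and every SM library was below every NSM library. With the cortical covariate it was at -0.44 and still called. *Sstr5*, a somatostatin receptor, fell by 0.78 (limma, adjusted p = 0.135). *Npy6r* had an adjusted p of 0.0273 (limma), but this rested on 1 read in each NSM library and 6 in each SM library.

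In stressed females compared to unstressed females 2 of the 13 were called, where 1.73% of all tested genes were. *Npy2r*, the Y2 receptor, was at 20.4 ± 1.00 CPM in SF and 15.2 ± 2.46 in NSF (SD, n = 3), a rise of 0.42 ± 0.13 (limma, adjusted p = 0.948), and *Npy6r* had 1 to 4 reads in SF and 4 to 11 in NSF. The difference between the sexes' effects was 0.68 ± 0.19 for *Npy2r* (limma, adjusted p = 0.260). With the cortical covariate the female *Npy2r* value was 0.34 and under the fold threshold. Between unstressed females and unstressed males *Sstr1* (0.56), *Sstr3* (1.14) and *Npy6r* (2.04) were higher and *Npy2r* (-0.41) lower, all with adjusted p over 0.1 (limma), and *Sstr5* was higher in stressed females than in stressed males by 1.00 (limma, adjusted p = 0.109). *Npy6r*, with at most 11 reads in any of the libraries compared, was also called in stressed females against stressed males (-1.47) and in the difference between the effects (-3.51). The receptors of Vip and Cck on the list (*Vipr1*, *Vipr2*, *Cckar*, *Cckbr*) were not called in any comparison.

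Of 8 genes of nitric oxide and cyclic GMP signaling, which act with or downstream of *Nos1*, 1 was called in stressed males, *Nos3*, the endothelial synthase, at -0.41 ± 0.15 (limma, adjusted p = 0.137) with overlapping libraries, and it was higher in stressed females than in stressed males by 0.49. None was called in stressed females or in the difference between the effects, where 1.73% and 4.42% of all tested genes were. The share of all tested genes called in stressed males was 6.44%.

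The genes whose levels ran most nearly parallel to each member were found by the Pearson correlation of log2 CPM over the 12 libraries, among 17566 genes with a mean of at least 10 reads. All points share their libraries and pools, and the highest of so many values is high by selection, so these are descriptions. For *Cck* they were *Nov* (0.993), *Bmp3* (0.988) and *Prss12* (0.983), and for *Vip* *Mylk* (0.954), *3110035E14Rik* (0.953) and *Hgf* (0.952). For *Sst* they were *Diras1* (0.976), *Ppfia3* (0.969) and *Lmna* (0.965), and for *Npy* *Ctsf* (0.923), *D630023F18Rik* (0.909) and *Lum* (0.907).

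For *Calb2* the nearest genes were *Dner* (0.940), *Fxyd6* (0.930) and *Dennd3* (0.922). For *Pvalb* they were *Cend1* (0.935), *Rlbp1* (0.933) and *Pappa2* (0.932), for *Nos1* *Rptor* (0.939), *Rfxap* (0.933) and *Prkra* (0.897), and for *Lhx6* *Agt* (0.928), *Sema3c* (0.920) and *Ankfn1* (0.910). No gene was among the nearest 3 of more than one member.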

How the data were processed

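The values analysed are the raw read counts per gene that the authors deposited for 12 mRNA libraries, without normalization. Paired reads (50 bases) had been aligned by TopHat2 to NCBIM37 with gene models of Ensembl version 67, and HTSeq had counted them. The strand setting is not given in the sources used here. Libraries held 41076780 to 60867747 counted reads, and all ran together on 3 lanes. The small RNA counts were not used.

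Groups came from the labels. Symbols, coordinates and exon lengths are those of GENCODE for NCBIM37, in which none of the 8 genes overlaps another gene. A gene was kept if more than 5 reads were counted in 80% or more of the libraries of any condition. Counts were scaled by TMM factors and fitted by voom and limma 3.58.1 (R 4.3.3) to all 12 libraries with one mean per group, with Benjamini-Hochberg adjustment over all 18593 genes. RPKM used the union of exons. Permutation tests (two-sided, 100000 resamples) ran in Python 3.11.15 with numpy 2.4.6, and plots in matplotlib 3.10.9. An exact permutation test of 3 libraries against 3 cannot go below p = 0.10, so p values come from the model. Replicates were pools of different mice.

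The members, gene lists and alternatives were chosen with earlier results of these data known. Named genes of a list were those called at an adjusted p under 0.05 in a comparison, otherwise up to 4 with the smallest p. Alternatives were edgeR 4.0.16 (quasi-likelihood), DESeq2 1.42.0, other scalings and filters, sample quality weights, a replicate block, single libraries left out, a cortical covariate, other call rules, and, added after seeing the data, fits without NSF libraries 1 and 3 or SM libraries 2 and 3. The fits were tested on simulated data with known changes. Promoters are RefSeq windows matched exactly to NCBIM37. One listed gene is not reported here.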

Additional observations from a re-analysis of the deposited data

Results flagged for a closer look

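2 of the 8 genes were called for a difference between the sexes in their response to stress, by the interaction term of limma at an unadjusted p, where 4.42% of all genes were called. Neither passed the adjustment. *Cck* had a log2 difference (female effect minus male effect) of -3.02 (adjusted p = 0.410). It was higher in 3 of 3 SM libraries than in any NSM library, and in females NSF library 2 lay on the other side of the SF libraries from NSF libraries 1 and 3. *Lhx6* had a difference of 0.39 (adjusted p = 0.273), with 3 of 3 SM libraries below all NSM libraries and 2 of the 3 SF libraries above all NSF libraries. Dixon's test of outlying samples has little power in groups of 3 libraries and was not run.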

How the results depend on the processing

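Counts of called members moved by more than 1.5 times under these settings. In males (3 called) it was 1 with the cortical covariate, 1 without SM libraries 2 and 3, and 0 by adjusted p. In females (0) it was 2 with edgeR, 1 with DESeq2, 1 without NSF libraries 1 and 3, 1 without a fold threshold and 2 with the replicate block. For the difference between the sexes' effects (2) it was 1 with quantile normalization or without NSF libraries 1 and 3, and 0 without SM libraries 2 and 3 or by adjusted p. For NSF against NSM (2) it was 1 with library size scaling, quantile normalization, only the groups compared, or without SM libraries 2 and 3, 4 with sample weights, and 0 with the covariate, without NSF libraries 1 and 3, or by adjusted p. For SF against SM (0) it was 1 with edgeR, sample weights, the replicate block or the covariate, 2 without a fold threshold, and 3 with only the groups compared or without NSF libraries 1 and 3. Leaving out single libraries gave 0 to 4 called in males, 0 to 3 in females, 1 to 4 for the difference, 0 to 5 for NSF against NSM and 0 to 3 for SF against SM.

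These log2 values changed sign. With the covariate they were, in males, *Sst* -0.12, *Npy* -0.038, *Vip* -0.54, *Cck* -0.35 and *Nos1* 0.027, in females *Sst* 0.064 and *Npy* 0.041, for the difference *Pvalb* 0.15, *Sst* 0.19, *Npy* 0.079, *Vip* 0.32, *Cck* 0.022 and *Nos1* -0.063, and for NSF against NSM *Vip* -0.45, *Cck* -0.10 and *Calb2* -0.29. Without NSF libraries 1 and 3 they were, in females, *Sst* 0.18, *Npy* 0.13, *Vip* 0.60, *Cck* 0.57 and *Nos1* 0.026, for the difference *Pvalb* 0.14, *Sst* 0.11 and *Npy* 0.014, and for NSF against NSM *Vip* -0.33 and *Calb2* -0.12. Without SM libraries 2 and 3 *Nos1* was 0.098 in males and -0.11 for the difference, and for SF against SM *Npy* was -0.031, *Vip* 0.084, *Cck* 0.013 and *Nos1* -0.024. With sample weights *Nos1* was 0.0027 in males and -0.011 for the difference, and *Sst* was 0.024 and *Npy* 0.00032 in females. For the difference *Nos1* was -0.0043 with DESeq2, -0.0033 with its size factors and -0.0023 at 10 or more reads in every library.

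Single libraries left out changed the sign within these ranges. In females they were -0.019 to 0.64 for *Pvalb*, -0.097 to 0.11 for *Sst*, -0.091 to 0.062 for *Npy* and -0.050 to 0.018 for *Nos1*. In males they were -0.051 to 0.15 for *Sst* and -0.070 to 0.044 for *Nos1*. For the difference they were -0.16 to 0.056 for *Sst*, -0.020 to 0.43 for *Calb2* and -0.054 to 0.055 for *Nos1*, and for SF against SM -0.016 to 0.41 for *Pvalb* and -0.012 to 0.12 for *Npy*. The cause was not tested. The fits without NSF libraries 1 and 3 or SM libraries 2 and 3 leave 1 library in that group, picked after the values were seen and assumed to vary like the other groups, so that a lost call or sign there says nothing of stability. Under all settings other than single libraries left out, these fits included, 429 log2 values kept direction and side of the threshold. Of the remaining values 39 changed sign, 27 gained a call in the same direction and 17 lost one. The members' RPKM ranks were the same with the longest transcript, and each correlation with cortical markers had the same sign with *Slc17a7* alone.

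Same-numbered libraries did not deviate together in every pair (correlations of -0.000323 to 0.315 in males and 0.0779 to 0.107 in females), so the numbers were not taken as a pairing. Their mean correlation was 0.113 in males, 0.0952 in females, 0.0770 between NSM and NSF and -0.00965 between SM and SF. The replicate block moved the genes with an adjusted p under 0.05 (limma) from 618 to 998 in SM against NSM. They went from 53 to 562 in NSF against NSM and from 27 to 837 in SF against SM, and stayed at 0 in SF against NSF. Whether same-numbered libraries share a factor was not tested. With the replicate block 2 members, *Cck* and *Calb2*, were called in females and 1, *Calb2*, in SF against SM, where *Lhx6* had an adjusted p of 0.0365 (limma) while under the fold threshold. The fit with only the groups compared does not apply to the difference between the effects. *Vip* and *Pvalb* had at most 326 and 283 reads in a library, which limits their precision.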
